A study of Homo sapiens with 2 samples.

Results

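The desmosome genes examined were 10 genes for parts of this cell junction: the plakins DSP and PPL, the armadillo proteins JUP, PKP1, PKP2 and PKP3, and the cadherins DSG2, DSG3, DSC2 and DSC3. They were chosen by name, and every region that a list of YTHDF3-enriched regions assigned to them was taken. A gene without a region in the list counted as having no peak. The 10 genes are among 19974 protein-coding genes of chromosomes 1 to 22 and X, and 7 of the 18466 listed peaks carried their names. These 7 peaks belonged to 4 genes, DSP, PPL, PKP2 and DSG3, and none was listed for the other 6.

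KYSE30 cells come from a human squamous carcinoma of the esophagus and are an established line. They were untreated and grown with 10% serum. An antibody to YTHDF3 recovered RNA-protein complexes from the lysate (RNA immunoprecipitation, RIP), giving 1 RIP library, which was set against 1 input library of the same cells. The 2 libraries have no replicates, so no value below has a replicate error and no test between conditions could be made. No control antibody and no YTHDF3-deficient cells were analysed here, so recovery through YTHDF3 cannot be told apart from nonspecific recovery. A single line also stands for the tumor type.

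Desmosomes hold neighbouring epithelial cells together and are abundant in stratified squamous epithelia such as that of the esophagus. Desmogleins and desmocollins, the desmosomal cadherins, span the membrane and adhere to those of the next cell. Inside the cell their tails bind the armadillo proteins plakoglobin (JUP) and plakophilins (PKP genes), which bind desmoplakin (DSP), and desmoplakin ties the junction to keratin filaments. YTHDF3 is a cytoplasmic protein that reads N6-methyladenosine (m6A) in RNA and is known to act in translation and decay of the RNA it binds.

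Each peak carries the authors' fold enrichment, the ratio of RIP over input, with a p and an adjusted p for that peak. These describe the reads of the 2 libraries. Counts per peak were not used, so the depth behind a fold enrichment is unknown. Peaks are genomic regions on hg38 that can span introns, and which exon they cover was not analysed here. The strand setting of the counting is not given in the sources used here. A gene without a listed peak may be unexpressed, expressed without enrichment or below the authors' threshold, and the list does not separate these cases.

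Desmosome genes had a peak in 4 of 10 cases, against a background of 40.1% of all protein-coding genes, so the share was close to the background. All 7 peaks had an adjusted p under 0.05, the largest being 0.00933. At that limit the count was again 4 of 10, against 34.0% of all protein-coding genes. Counting only peaks at or above the median fold enrichment, 3 of 10 genes had one (PPL, PKP2 and DSG3), against 28.7%. Among the 10% of peaks with the smallest p, 2 of 10 genes had one (DSP and PPL), against 7.99%. The fold enrichments of the 7 peaks ran from 1.97 to 23.8 with a median of 4.80, and the median over all peaks was 5.02. Taking the best peak of each gene, the 4 genes had a median of 7.93, and all protein-coding genes with a peak had one of 7.53. The 4 genes nevertheless differed among themselves. The plakins each had 1 long region with a very small p. PKP2 had a longer region still, of 100859 bases at a fold enrichment of 2.23, and a short one of high fold enrichment at its 5' end. DSG3 had 3 separate regions.

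**Figure D1:**
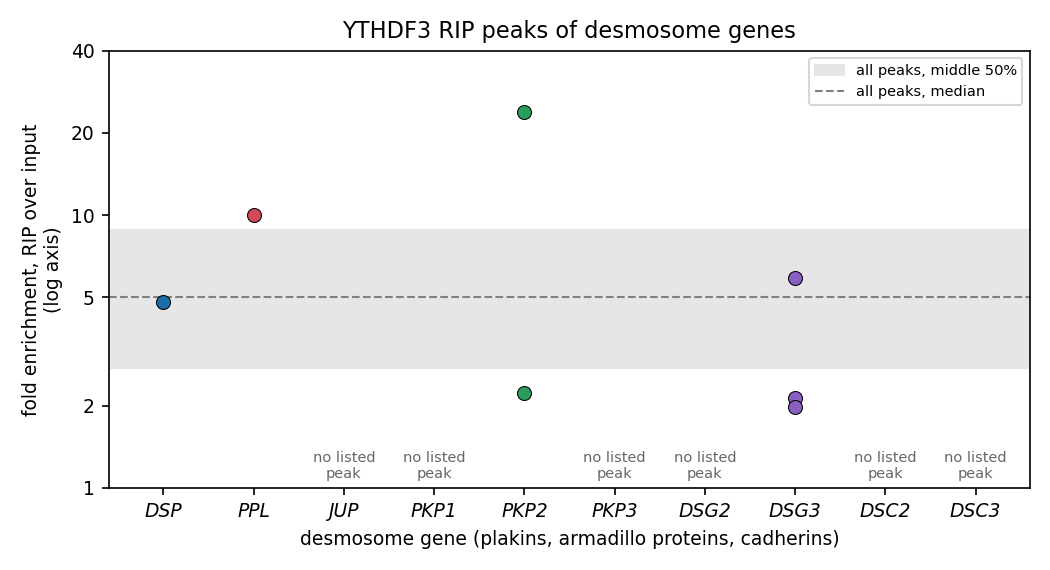
Fold enrichment (RIP over input, log axis) of each of the 7 peaks, by desmosome gene, with 1 point for each peak. The grey band is the middle 50% of all 18466 peaks (2.76 to 8.78) and the dashed line their median (5.02); PKP2 at 23.8 and PPL at 10.0 lie above the band, and 6 genes have no listed peak.

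The plakins, which link the junction to the cytoskeleton, both had a peak. DSP codes for desmoplakin, the plakin that every desmosome contains. Its single peak lay on chromosome 6 from 7541575 to 7586358, on the plus strand, and covered 99.2% of the gene (7541671 to 7586714 in RefSeq). The fold enrichment was 4.80, and 53.8% of all peaks had a larger one. Its p was 1e-145 (adjusted p 1e-143), and 2.25% of all peaks had a smaller p. By fold enrichment DSP was thus an ordinary peak, and by p it was near the top of the list.

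The DSP region began 96 bases before the RefSeq start of the gene and ended 356 bases before its 3' end. The 250 bases before the gene start are shown because the region reaches into them, and those of DSG3 are shown beside them because the region nearest to that start begins inside the gene. Capitals mark the bases inside a listed region. Sequences are from RefSeq (GRCh38.p14), plus strand, 5' to 3', chr6:7541421-7541670 for DSP and chr18:31447491-31447740 for DSG3.
DSP: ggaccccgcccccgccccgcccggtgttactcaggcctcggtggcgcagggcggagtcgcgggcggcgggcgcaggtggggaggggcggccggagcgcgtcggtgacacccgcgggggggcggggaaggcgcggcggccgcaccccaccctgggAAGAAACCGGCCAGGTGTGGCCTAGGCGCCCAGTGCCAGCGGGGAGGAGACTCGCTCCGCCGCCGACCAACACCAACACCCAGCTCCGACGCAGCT
DSG3: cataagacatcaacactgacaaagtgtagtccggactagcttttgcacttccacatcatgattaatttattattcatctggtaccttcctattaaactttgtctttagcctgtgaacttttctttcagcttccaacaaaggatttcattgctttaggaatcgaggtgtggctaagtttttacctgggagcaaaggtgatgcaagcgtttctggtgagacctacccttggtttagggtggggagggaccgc

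In DSP, 96 of the 250 bases lay in the region, and in DSG3 none did, the first DSG3 region starting 54 bases after the gene start. The stretches also differed in composition, with 78.0% G and C in DSP and 42.8% in DSG3. Of the 10 genes, 7 matched the RefSeq promoter windows of 300 bases (250 before and 50 after a start). Over all 35116 windows the median share of G and C was 58.7%. DSG2, without a peak, had 76.7% in its window, beside 77.0% for DSP. Only 2 of the 4 genes with a peak, DSP and DSG3, had a window, so the share was not compared between genes with and without a peak. The DSP region also overlapped 1509 bases of the long noncoding RNA gene DSP-AS1. A peak under the clone name RP3-512B11.3, on the minus strand, had a fold enrichment of 6.27. It ended 236 bases before the DSP region, within DSP-AS1. Where the DSP region overlaps DSP-AS1, reads of these genes cannot be told apart without the strand setting.

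PPL codes for periplakin, a plakin of desmosomes and of the cornified envelope in keratinocytes. Its single peak was on the minus strand of chromosome 16 from 4882507 to 4960741, with a fold enrichment of 10.0 and a p of 1e-121 (adjusted p 1e-119). Of all peaks, 16.7% had a larger fold enrichment and 2.82% a smaller p. Many peaks shared the same fold enrichment of 10.0, 830 in all, with a median p of 0.00407, and 17 of these had a smaller p than PPL. PPL therefore combined a fold enrichment above the upper quartile of all peaks (8.78) with one of the smaller p of the list, as the plot of fold enrichment against p shows.

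The PPL region started at the gene's 3' end to the base and covered the whole gene (4882507 to 4937148). At the other end it ran 23593 bases beyond the RefSeq 5' end and reached 2412 bases into SEC14L5, a neighbouring gene. It also contained the long noncoding RNA genes LOC124903637 and LOC105371064, which lie within PPL. Which of these transcripts gave the reads cannot be told from the list. Past the 3' end, a gap of 146 bases separated it from a peak of UBN1 on the opposite strand, with a fold enrichment of 18.8.

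**Figure D2:**
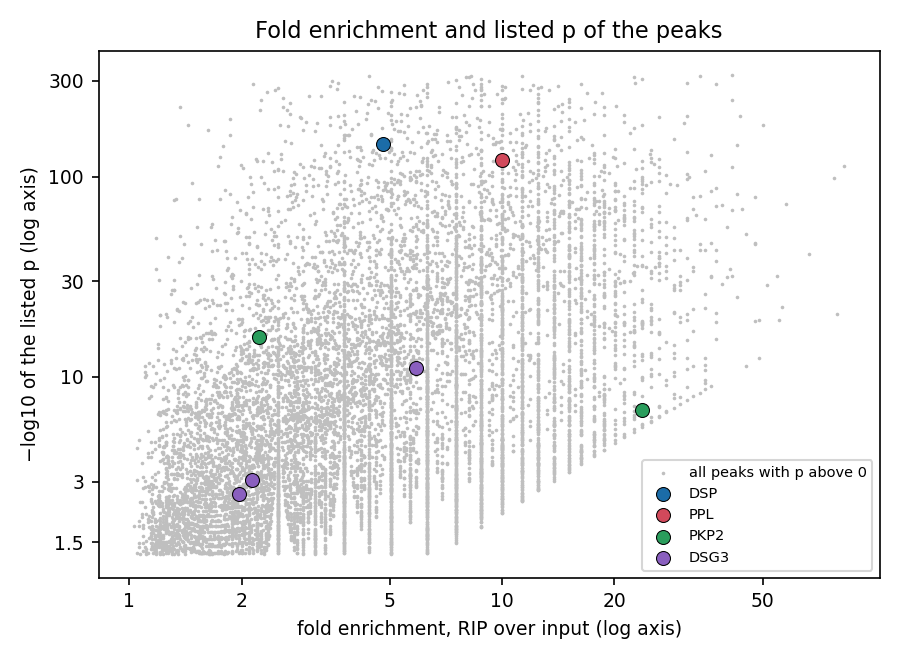
Fold enrichment (horizontal, log axis) against −log10 of the listed p (vertical, log axis), with grey points for all peaks whose p is above 0 and coloured points for the 7 peaks of desmosome genes. DSP and PPL lie high, at 145 and 121. The PKP2 peak with a fold enrichment of 23.8 lies at 6.82, near the lower edge of the points at that fold enrichment. Vertical lines of grey points are fold enrichments that many peaks share.

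Among the armadillo proteins, PKP2 had 2 peaks, and JUP, PKP1 and PKP3 had none. PKP2 is the plakophilin found in simple epithelia and in the heart as well as in proliferating layers of stratified epithelia. Its best peak lay on the minus strand of chromosome 12 from 32893702 to 32896840, a span of 3139 bases at the 5' end of the gene, and overshot the RefSeq gene end by 63 bases. The fold enrichment of 23.8 was the largest of any desmosome gene. Only 1.33% of all peaks had a larger one, and 2.58% of genes with a peak had a larger best value. Its p was 1.51e-07 (adjusted p 1.02e-06), and 31.2% of all peaks had a smaller p.

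The second PKP2 peak followed after 179 bases, from 32792664 to 32893522, and took in 95.1% of the gene. Its fold enrichment was 2.23, with a p of 1.26e-16 (adjusted p 1.58e-15). The 5' region therefore had the higher fold enrichment and the long region the smaller p, so the value that stands for PKP2 is 23.8 or 2.23 depending on which peak is taken. Whether the fold enrichment differed between the 2 regions beyond counting error was not tested, since no counts were used. Among the 55 peaks with a fold enrichment of 23.8, 38 had a smaller p than the PKP2 peak, 16 a larger one, and the median p was 7.94e-19.

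The PKP2 and PPL values of 23.8 and 10.0 also share a numerical feature with much of the list. Both are whole multiples of 1.2546 within the rounding of the list, as were 50.3% of all peaks, whereas the other 5 values of desmosome genes were not. The part of a low input in these values was not tested.

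Plakoglobin (JUP), the armadillo protein shared by desmosomes and adherens junctions, had no listed peak over its 32103 bases on chromosome 17. PKP1, prominent in the upper layers of stratified epithelia, had none over 49484 bases on chromosome 1. PKP3, which occurs throughout most epithelia, had none over 12313 bases on chromosome 11. The peaks nearest to these 3 genes belonged to P3H4 (15235 bases from JUP, fold enrichment 22.6), LAD1 (48455 bases from PKP1, 1.79) and B4GALNT4 (11675 bases from PKP3, 2.76).

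**Figure D3:**
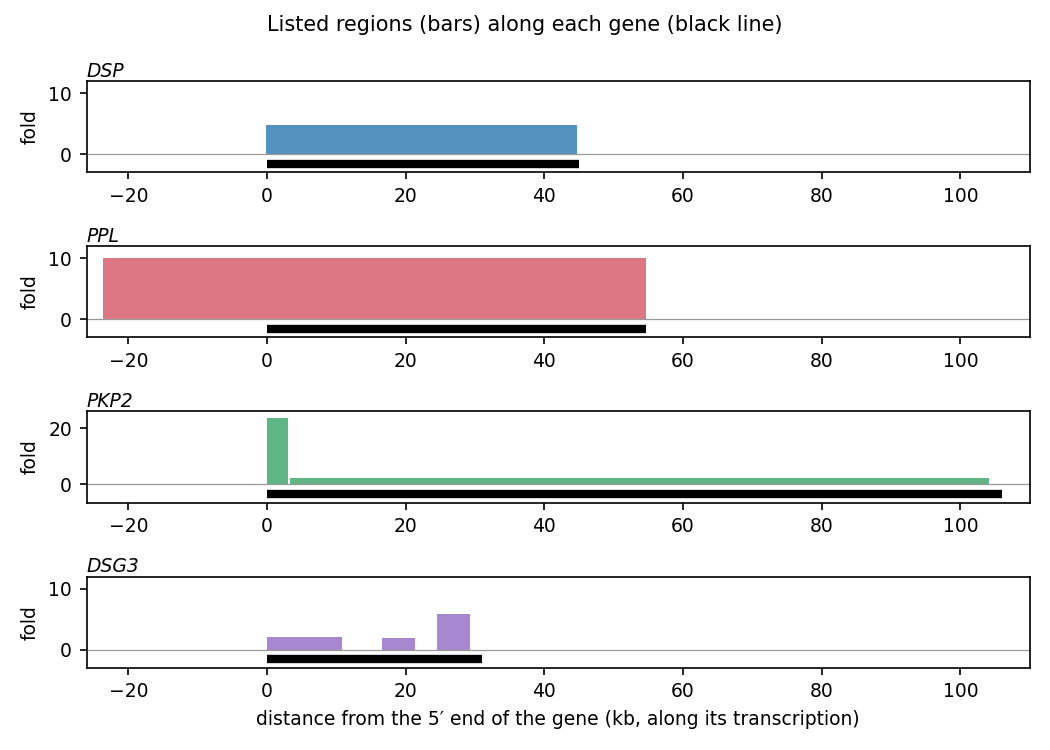
Listed regions (coloured bars, height is the fold enrichment of RIP over input) along DSP, PPL, PKP2 and DSG3, each drawn from its 5' end in kilobases with the RefSeq gene as a black line. The DSP and PPL regions take in nearly the whole gene, PPL with 23593 bases beyond its 5' end, PKP2 has a short bar at 23.8 and a long one at 2.23, and the highest DSG3 bar, 5.86, is the one nearest the 3' end.

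Among the cadherins, DSG3 had 3 peaks, and DSG2, DSC2 and DSC3 had none. DSG3 is the desmoglein of the lower layers of stratified squamous epithelium and the main autoantigen of pemphigus vulgaris. Its regions on the plus strand of chromosome 18 ran from 31447795 to 31458564, from 31464343 to 31469102 and from 31472305 to 31477060. In that order, the fold enrichments were 2.13, 1.97 and 5.86. The third region, centred at 87.0% of the way from the 5' to the 3' end, thus had the highest value, while the other two were below the lower quartile of all peaks (2.76). Its p was 7.94e-12 (adjusted p 7.94e-11), and the p of the first and second regions were 0.000871 and 0.00245. The 3 regions covered 65.5% of the gene and were separated by 5778 and 3202 bases. Having 3 or more peaks was not unusual, since 25.5% of genes with a peak did.

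The other cadherins have different places in epithelia. DSG2 and DSC2 occur in most tissues with desmosomes, and DSC3 is found in the lower layers of stratified epithelia together with DSG3. All 7 desmosomal cadherin genes lie in 1 cluster of 559644 bases on chromosome 18, in the order DSC3, DSC2, DSC1, DSG1, DSG4, DSG3 and DSG2. Among the peaks analysed here, the 3 of DSG3 were the only ones in it. DSG2, the nearest neighbour of DSG3, began 21116 bases past the last of them. On the far sides, the closest peaks were of RNF138, 581.8 kb beyond DSG2, and of KCTD1, 4332 kb beyond DSC3.

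**Figure D4:**
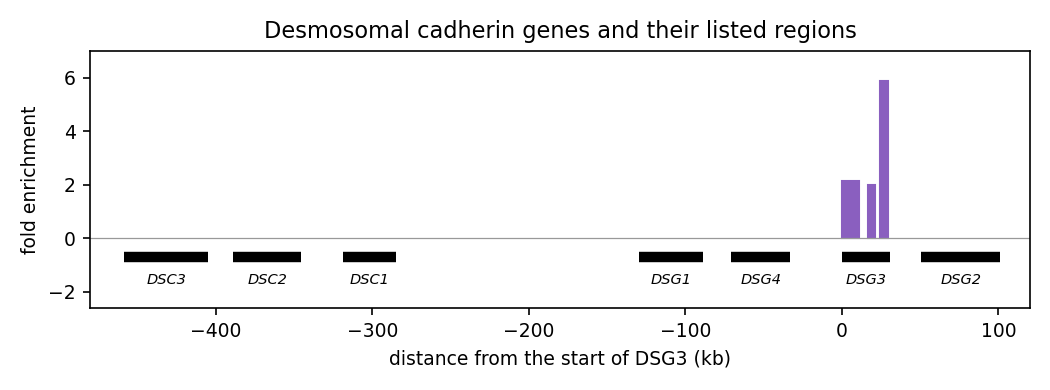
The 7 desmosomal cadherin genes of chromosome 18 (black bars) by distance from the start of DSG3 in kilobases, with the listed regions as purple bars whose height is the fold enrichment of RIP over input. The 3 bars, at 2.13, 1.97 and 5.86, all stand over DSG3.

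The lengths of the genes with a peak and of those without overlapped, and the difference was not tested. The 4 with a peak ranged from 30962 bases (DSG3) to 106023 bases (PKP2), with a median of 49843. The 6 without ranged from 12313 (PKP3) to 53378 bases (DSC3), with a median of 46533. PKP2 and PPL (54642 bases) were longer, and PKP3 shorter, than any gene of the other group. None of the 7 peaks overlapped a peak listed for another gene.

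Further genes of desmosomes and of the envelope built on them had a peak in 3 of 7 cases (42.9%), near the background of 40.1%. PKP4, a plakophilin relative found at several junctions, was listed once, over 224464 bases that overlapped another gene's peak, with a fold enrichment of 5.02 and a p of 1e-120. EVPL, which codes for envoplakin, the partner of periplakin in the cornified envelope, had 4 peaks, whose fold enrichments were 3.26, 2.26, 2.20 and 3.35. The peak at 2.20 had an adjusted p of 0.0759. CDSN, which codes for corneodesmosin of the desmosomes in the outermost layers, had 1 peak at 22.6 with a p of 4.79e-06, a high fold enrichment with a moderate p like the 5' peak of PKP2. No peak was listed for DSG1, DSG4 and DSC1, the cadherins of differentiated layers and hair, or for PERP, a tetraspan membrane protein of desmosomes.

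Lists for the structures around desmosomes are read against the same background of 40.1% of protein-coding genes. Keratin genes had a peak in 4 of 10 cases, a share near it, led by KRT6B at 10.0 and KRT14 at 4.08. Hemidesmosome genes, for the junction of basal cells with the basement membrane, had a peak in 5 of 6 cases, but in 2 of 6 (33.3%) with a peak at or above the median fold enrichment, where the background was 28.7%. Their leading genes were PLEC at 11.3 and DST at 6.90, both for plakins. Adherens junction genes had a peak in 8 of 11 cases (72.7%), led by NECTIN1 at 12.5 and CTNNA1, for alpha-catenin, at 11.3. Tight junction genes had a peak in 8 of 10 cases (80.0%), led by CLDN4 (claudin 4) at 20.1 and by MARVELD2 (tricellulin) at 8.78, where the adjusted p of that peak was 0.142. Over the genes with a peak, the median best fold enrichment was 3.16 for keratins, 4.18 for hemidesmosome, 7.53 for adherens junction and 7.32 for tight junction genes, beside 7.93 for the 4 desmosome genes with a peak and 7.53 for all protein-coding genes with a peak. At an adjusted p under 0.05, 3 of 10 keratin and 5 of 6 hemidesmosome genes had a peak, against 34.0% of protein-coding genes. Adherens junction genes then had one in 8 of 11 cases and tight junction genes in 7 of 10. These lists are small, and the differences between them were not tested.

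**Figure D5:**
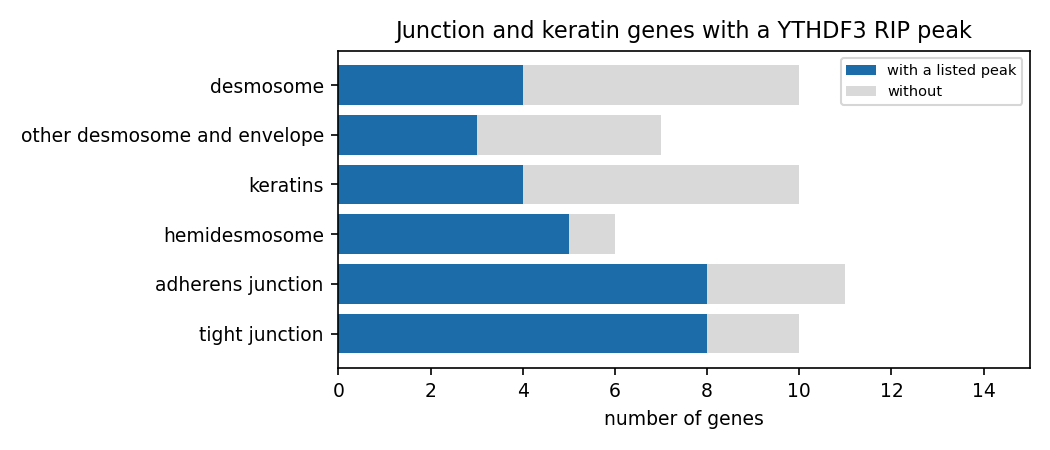
Number of genes with (blue) and without (grey) a listed YTHDF3 RIP peak in the desmosome list and in 5 other lists. The blue bars show 4 of 10 desmosome genes, 3 of 7 other desmosome and envelope genes, 4 of 10 keratins, 5 of 6 hemidesmosome genes, 8 of 11 adherens junction genes and 8 of 10 tight junction genes.

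The labelled cell type was checked with marker lists, although a peak is not a measure of expression. The background is again a peak in 40.1% of all protein-coding genes. Squamous epithelial markers had a peak in 5 of 7 cases (KRT5, KRT14, TP63, SFN and CDH1, but not KRT6A or EPCAM). At or above the median fold enrichment they had one in 2 of 7 (28.6%), where the background was 28.7%. With all listed peaks, immune markers had one in 1 of 5 cases (CD68), fibroblast markers in 1 of 5 (COL3A1) and endothelial markers in 1 of 4 (CDH5). The COL3A1 and CDH5 peaks had adjusted p of 0.254 and 0.0776. CD68 had 2 peaks, and the smallest adjusted p of CD68 was 0.00126. That value came from the peak at 3.76, which overlapped another gene's peak, as did the CDH1 peak among the squamous markers. Which gene gave the reads there was not tested. For the other CD68 peak, at 5.02, the adjusted p was 0.261.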

How the data were processed

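The data were 1 YTHDF3 RIP library and 1 input library of KYSE30 cells, assigned from the sample titles. RNA was fragmented, copied with random hexamers, tagged with molecular identifiers and sequenced as pairs of 150-base reads, per the labels' protocols. Peak coordinates are on hg38 (per the submitters' processing notes), and which aligner, caller and thresholds were used is not given in the sources used here. The deposited list gives each peak a fold enrichment, which is the authors' ratio of the RIP to the input library, and a p-value and adjusted p-value on a linear scale, per the file headers. Library totals were not used.

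Starts were read as counted from 0, since 786 of them lay 1 below their gene's start in RefSeq (GRCh38.p14) and 68 equalled it, and are printed counted from 1. Names were matched to RefSeq by symbol (16536 peaks), older symbol (762) or, for 23 names turned into dates, by position, on the same chromosome and within 100000 bases; 1145 peaks were unmatched. Python 3.11.15, pandas 2.3.3 and matplotlib 3.10.9 were used. The matching and overlap steps were tested on simulated data.

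Results are counts, medians and the authors' values, with no test. The genes and lists were chosen with earlier results of these data known. Named genes were the 10 desmosome genes, every gene of the other desmosome list, and the 2 genes of each further junction list with the largest best fold enrichment, ties ordered by p. Alternatives were stricter thresholds, other rules for overlapping or long regions, and another peak or point to stand for a gene or region.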

Additional observations from a re-analysis of the deposited data

How the results depend on the processing

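Of 39 alternative values, 27 stayed equal or, for counts, within 1.5 times, and 12 moved. With the 10% of peaks with the smallest p, 2 desmosome genes with 2 peaks remained (DSP and PPL), with a median best fold enrichment of 7.40, against 7.99% of all protein-coding genes. At or above the median fold enrichment, 3 peaks in 3 genes remained (PPL, PKP2 and DSG3), with a median of 10.0, against 28.7% of all protein-coding genes. That threshold also left a peak in 2 of 6 hemidesmosome, 5 of 10 tight junction and 1 of 10 keratin genes. Adherens junction genes stayed at 8 of 11, and other desmosome and envelope genes were at 2 of 7. Without peaks that overlapped another gene's peak, outside the 39 values, the background was 35.3% of protein-coding genes. Adherens junction genes then fell to 6 of 11, hemidesmosome genes to 4 of 6, tight junction genes to 7 of 10 and other desmosome and envelope genes to 2 of 7. Desmosome and keratin genes stayed at 4 of 10. With the peak of smallest p standing for each gene, the median best fold enrichment of desmosome genes was 5.33 and PKP2 had 2.23. With the median over a gene's peaks it was 7.40. The median position of the 7 peaks was 49.5% of the way along the gene by midpoints and 94.7% by the ends nearest the 3' end. Fold enrichments over a low input are imprecise, and unknown depth limits every value.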

Other observations

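Grouped by protein family after the values were seen, the plakins had the largest share of genes with a listed peak and the desmosomal cadherins the smallest. The background is a peak in 40.1% of all protein-coding genes. All 7 plakin family genes examined (DSP, PPL, EVPL, DST, PLEC, MACF1 and EPPK1) had a listed peak, 47 peaks in all, with best fold enrichments from 3.35 in EVPL to 11.3 in PLEC, MACF1 and EPPK1. Of these, DST with 16 peaks and MACF1 with 13 are genes of 496835 and 402972 bases, while EPPK1 had 8 peaks over 21871 bases. The best fold enrichments of DSP (4.80) and EVPL (3.35) were below the median of all peaks, 5.02. That of the cadherin DSG3, 5.86, lay within the plakin range.

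Armadillo proteins of junctions had a peak in 5 of 9 cases, against that background of 40.1%, and the difference was not tested. Beside PKP2 and PKP4, these were CTNND1, which codes for p120-catenin, at 7.53, and its relatives CTNND2 and ARVCF at 8.78 each. The smallest adjusted p of CTNND2 was 0.0501, so it had no peak under the limit of 0.05. JUP and CTNNB1, the closely related genes for plakoglobin and beta-catenin, both had no listed peak, nor had PKP1 and PKP3. Of the 7 desmosomal cadherins, DSG3 alone had one. Since the families were chosen with these values in view, the counts are a description of the list.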
